A study of Homo sapiens with 12 samples.

Results

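Voclosporin (VCS) was compared with its solvent, dimethyl sulfoxide (DMSO), in a differentiated human podocyte cell line. The comparison rests on 6 of the series' 12 RNA-seq libraries, the 3 labelled VCS and the 3 labelled DMSO control, and each treated library was matched to the control library of the same replicate number. The other 6 libraries, 3 of cyclosporine A (CSA) and 3 of tacrolimus (TAC), entered the model to estimate the spread and served for comparison of the drugs. Every inhibitor was given at 100 nM for 24 h. All 4 groups share the same background: a conditionally immortalized line that carries a temperature-sensitive SV40 T gene, moved to the non-permissive temperature to differentiate before treatment. The labels do not say whether replicates were separate cultures, so p-values measure the spread between these libraries, which may be technical.

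Calcineurin is a calcium-dependent phosphatase that dephosphorylates NFAT transcription factors and so lets them enter the nucleus. VCS and CSA are cyclic peptides that bind cyclophilins, and VCS is an analog of CSA modified in the side chain of an amino acid residue. TAC is a macrolide that binds FKBP proteins, and either complex inhibits calcineurin. In podocytes, the cells that wrap glomerular capillaries, calcineurin also acts on synaptopodin, an actin-organizing protein of the foot process.

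The libraries held 28808213 to 36077072 counts. Of 62262 genes, 19784 passed the filter on low counts and were tested. Levels are given as CPM, counts scaled to a common library size. Podocyte markers were uneven across the 12 libraries: ACTN4, an actin cross-linker, lay between 1345 and 1675 CPM and SYNPO, which encodes synaptopodin, between 41.9 and 67.3, whereas the slit diaphragm gene NPHS1 had 1 to 11 counts a library and the calcium channel gene TRPC6 0 to 6. NPHS1 and TRPC6 were below the filter and not tested. Counts of mitochondrially encoded genes made up 7.10%, 8.12% and 10.8% of the DMSO libraries numbered 1 to 3, and 6.18%, 5.90% and 13.4% of the VCS libraries. The libraries numbered 3 were thus the highest of their group on this measure.

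No gene passed an adjusted p of 0.05 between VCS and DMSO: 0 of 19784 genes (0%) in edgeR's quasi-likelihood test with the replicate number as a block. Without adjustment for the number of genes, 2179 genes had a p under 0.05 (11% of those tested), of which 1035 (5.23%) were higher and 1144 (5.78%) lower in VCS. DESeq2 on the same counts called 37 genes, 15 of them higher in VCS. Genes with 1 sign in all 3 pairs numbered 7241 (36.6%), 3667 higher (18.5%) and 3574 lower (18.1%). The 3 VCS libraries lay wholly above the 3 DMSO libraries for 656 genes (3.32%) and wholly below for 823 (4.16%). Differences are given as log2 differences, VCS minus DMSO, with their standard error (SE), and none of those against DMSO passed the adjusted threshold.

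The pairs did not move alike. Across the 19784 genes the pair differences of numbers 1 and 2 had a Pearson r of 0.208, those of 1 and 3 of −0.017 and those of 2 and 3 of 0.095. Among the 6145 genes with a mean log2 CPM of at least 5, the same values were 0.694, 0.192 and 0.293. Genes within a library are not independent, and these values carry no test. The pair numbered 3 thus stood apart from the other pairs, and it also held the VCS library with the largest mitochondrial share.

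Of the readouts of calcineurin, RCAN1 was close to its control level, and other NFAT targets lay on both sides of 0. RCAN1, an NFAT target that encodes a calcineurin inhibitor and lies at chr21:34513142-34615142 (GRCh38), was at 168, 152 and 159 CPM in DMSO and 171, 183 and 153 in VCS. Its groups overlapped, and the difference was 0.08 (SE 0.07, adjusted p = 0.682). Of 25 NFAT target genes tested, 16 lay above 0 (50.3% of all genes did). An unadjusted p under 0.05 was found for 2 higher (8%, beside 5.23% of all genes) and 2 lower (8%, beside 5.78%). The 2 lower ones were CXCL8, a neutrophil chemokine, with a difference of −0.41 (SE 0.12), and IL6, an inflammatory cytokine, with −0.20 (SE 0.07). The 2 higher ones were CSF2, a myeloid growth factor, at 0.27 (SE 0.12), and CCND1, cyclin D1, at 0.18 (SE 0.07). The list's median was 0.08, against 0.00 over all genes tested. With a library left out, the higher count ran from 0 to 4, at 0 without the DMSO library numbered 2 or 3 or the VCS library numbered 2 and 4 without the CSA library numbered 3, and the lower count from 1 to 3.

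PPP3CA, the alpha catalytic subunit of calcineurin, was at 59.8, 58.6 and 59.5 CPM in DMSO and at 64.5, 68.5 and 66.6 in VCS. All VCS values lay above all DMSO values, with a difference of 0.17 (SE 0.06, adjusted p = 0.399). Among 29 genes of calcineurin, NFAT and their regulators, 5 had an unadjusted p under 0.05 and a higher level (17.2%, beside 5.23% of all genes). At that threshold 1 had a lower level (3.45%, beside 5.78% of all genes). The higher ones included NFATC3, an NFAT transcription factor, at 0.38 (SE 0.11), and CSNK1A1, a kinase that phosphorylates NFAT, at 0.28 (SE 0.07). The beta catalytic subunit gene PPP3CB differed by 0.15 (SE 0.07). The lower one was CRTC1, a CREB coactivator that calcineurin dephosphorylates, at −0.25 (SE 0.08). The count of 5 was 2 without the DMSO library numbered 2 and 3 without either the DMSO library numbered 3 or the VCS library numbered 2.

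Of the genes for the binding proteins of the drugs, cyclophilins lay mostly below 0 and FKBP proteins were evenly split. PPIA, cyclophilin A, differed by −0.06 (SE 0.10), and FKBP1A, the TAC-binding FKBP12, also by −0.06 (SE 0.09). Of 16 cyclophilin genes, 5 lay above 0 and 11 below. In all 3 pairs 6 were lower (37.5%, beside 18.1% of all genes) and 0 higher (18.5% of all genes). An unadjusted p under 0.05 was found for 2, both lower (12.5%, beside 5.78% of all genes): NKTR at −0.36 (SE 0.11) and PPWD1 at −0.22. That count was 1 without either library numbered 2 of VCS or DMSO and 5 without the library numbered 3 of CSA or VCS. Of 14 FKBP genes, 7 lay above 0, with FKBP4 at 0.20 and the endoplasmic reticulum protein FKBP11 at −0.46 beyond the same threshold.

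Of the lists examined, ATF4 targets had the most members beyond the unadjusted threshold. They are genes of the integrated stress response for amino acid uptake, synthesis and tRNA charging. Of 39 members tested, 34 lay above 0, 20 had an unadjusted p under 0.05 and a higher level (5.23% of all genes), and 2 had a lower level (5.78% of all genes). In all 3 pairs 26 members were higher and 3 lower, and the list's median difference was 0.18. None passed the adjusted threshold, and the members were written down with earlier results of these data known.

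SLC7A11, the cystine transporter subunit, at chr4:138164097-138242349, had the smallest p of the list. Its levels were 8.0, 11.4 and 7.48 CPM in DMSO and 12.6, 16.2 and 11.7 in VCS. The lowest VCS library lay above the highest DMSO library, and the difference was 0.60 (SE 0.11, adjusted p = 0.316). ATF3, a stress-induced transcription factor, was at 34.3, 28.4 and 28.4 CPM in DMSO and at 41.8, 40.5 and 33.9 in VCS, a difference of 0.35 (SE 0.08). Here the lowest VCS library fell inside the DMSO range. WARS1, tryptophanyl-tRNA synthetase, was at 66.7, 68.2 and 54.3 CPM in DMSO and at 79.5, 93.2 and 62.7 in VCS, a difference of 0.31 (SE 0.07).

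Amino acid enzymes of the same list showed similar sizes. PSAT1, of the serine pathway, was at 86.1 ± 5.75 CPM (SD, n = 3) in DMSO and 105 ± 16 in VCS, a difference of 0.27 (SE 0.07). ASNS, asparagine synthetase, was at 21.3, 33.5 and 31.0 CPM in DMSO and at 25.8, 42.6 and 40.2 in VCS. Its groups overlapped because the libraries numbered 1 were low in both, while its pair differences were 0.28, 0.35 and 0.37. CHAC1, a glutathione-degrading enzyme, differed by 0.29 (SE 0.08) and TRIB3, a pseudokinase, by 0.25 (SE 0.07). ATF4 itself, which is controlled mainly in translation, differed by 0.10 (SE 0.09), and DDIT3, which encodes CHOP, by 0.12 (SE 0.09). The 2 members lower at the unadjusted threshold were CEBPB, a transcription factor, at −0.36 (SE 0.12), and GDF15, a secreted stress cytokine, at −0.19 (SE 0.07).

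Of 23 aminoacyl-tRNA synthetase genes, which partly overlap the ATF4 list, 18 lay above 0. An unadjusted p under 0.05 was found for 10 with a higher level (43.5%, beside 5.23% of all genes) and 0 with a lower level. SARS1, the seryl enzyme, was at 145 ± 15.6 CPM in DMSO and 172 ± 21.8 in VCS (n = 3 each). MARS1, the methionyl enzyme, was at 137, 128 and 129 CPM in DMSO and at 154, 168 and 145 in VCS, with no overlap. The synthetase count of 10 was 3 without the DMSO library numbered 2 and 3 without the VCS library numbered 2. The ATF4 count of 20 was 12 without either of these libraries and 22 without the libraries numbered 3.

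Promoter sequence was examined for the binding motif of ATF4 with C/EBP proteins, since the members lay higher together. In windows of 250 bases before to 50 after each RefSeq transcription start (GRCh38.p14), the letters TGATGNAA on either strand occurred in 11 of the 33 ATF4 targets matched (33.3%) and in 4.46% of 27305 genes. Of the 11 members with these letters, 6 had an unadjusted p under 0.05 and a higher level. Of the 22 without them, 9 were higher and 2 lower. The list was written as known ATF4 targets, so its larger share of the letters follows from its making and is no result about VCS. A match is a description of the letters, not of binding. The stretch of the ATF3 promoter that holds the match lies on the plus strand at chr1:212565157-212565295, outside every GENCODE 29 exon, with the match in capitals.
ATF3: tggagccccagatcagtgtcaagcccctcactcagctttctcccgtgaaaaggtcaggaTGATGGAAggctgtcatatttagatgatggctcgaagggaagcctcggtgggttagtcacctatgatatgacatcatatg

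The unfolded protein response, by which the endoplasmic reticulum raises its chaperones, had 24 of 38 members above 0. At an unadjusted p under 0.05, 5 were higher (13.2%, beside 5.23% of all genes) and 0 lower. That count was 1 without the VCS library numbered 2, 2 without the VCS library numbered 1 or the DMSO library numbered 2 or 3, 9 without the VCS library numbered 3 and 14 without the CSA library numbered 3. Without the libraries numbered 3 it was 15, with 4 lower. DNAJB9, an endoplasmic reticulum co-chaperone at chr7:108569568-108574850, was at 19.8, 18.2 and 17.1 CPM in DMSO and at 27.7, 26.1 and 24.2 in VCS. Its groups did not overlap, its pair differences of 0.48, 0.52 and 0.50 were nearly equal, and the difference was 0.50 (SE 0.11, adjusted p = 0.336). SEL1L, a component of endoplasmic reticulum-associated degradation, differed by 0.43 (SE 0.16), HERPUD1 of the same process by 0.22 (SE 0.09), and the reductase DNAJC10 by 0.20 (SE 0.08). The abundant chaperones were close to control: HSPA5 differed by 0.07 (SE 0.08) and HSP90B1 by 0.03 (SE 0.08). The endoplasmic reticulum stress element was searched as CCAAT, any 9 bases and CCACG on either strand. The letters were found in 8 of 33 matched promoters, HSPA5 and HSP90B1 among them, and in 0.0916% of all genes. The list was written for this response, so its larger share of the letters is likewise no result about VCS. None of those 8 had an unadjusted p under 0.05, whereas 5 of the 25 without the letters did.

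NRF2 targets are genes of the antioxidant response. At an unadjusted p under 0.05, 6 of 29 were higher (20.7%, beside 5.23% of all genes) and 0 lower. Beside SLC7A11 they included TXNRD1, thioredoxin reductase, at 0.27 (SE 0.09), and NQO1, a quinone reductase, at 0.15 (SE 0.06). The count was 1 without the DMSO or the VCS library numbered 2 and 3 without the DMSO library numbered 3.

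Interferon-stimulated genes lay on the other side of 0. Of 49 members, 9 lay above 0 (50.3% of all genes did), 15 had an unadjusted p under 0.05 with a lower level (5.78% of all genes) and 0 with a higher level. In all 3 pairs 28 were lower (18.1% of all genes) and 1 higher (18.5%), and the median was −0.13. The pair medians were −0.12, −0.16 and −0.21, so the libraries numbered 3 showed the lower levels as well.

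IFI44L, an interferon-induced gene at chr1:78619922-78646145, was at 62.9, 73.1 and 50.8 CPM in DMSO and at 51.3, 45.4 and 36.1 in VCS. The groups overlapped by the DMSO library numbered 3, and the difference was −0.49 (SE 0.09, adjusted p = 0.316). XAF1, a pro-apoptotic interferon target, was at 90.3, 101 and 111 CPM in DMSO and at 71.0, 58.1 and 90.5 in VCS, a difference of −0.47. STAT2, a subunit of the transcription factor complex of type I interferon signalling, was at 186, 209 and 211 CPM in DMSO and at 168, 142 and 167 in VCS, with no overlap. Its difference was −0.34 (SE 0.09), and that of its partner IRF9, also with no overlap, was −0.21 (SE 0.07). OAS1, a sensor of double-stranded RNA, differed by −0.37 (SE 0.10) and the antiviral GTPase MX1 by −0.33 (SE 0.12). IFIT1, an antiviral RNA-binding protein, differed by −0.33 (SE 0.12) and ISG15, a ubiquitin-like modifier, by −0.13 (SE 0.13). For MX1 and IFIT1 the libraries numbered 3 were the lowest in both groups, and each VCS library lay under its own control. The count of 15 was 8 without the DMSO library numbered 2, 14 without the VCS library numbered 2 and 16 without the libraries numbered 3.

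The interferon-stimulated response element, searched as GAAA, any 2 bases and GAAA on either strand, occurred in the promoter windows of 26 of 38 matched members (68.4%) and of 4.38% of all genes. The list was written as known interferon-stimulated genes, so its larger share of the letters follows from its making and is no result about VCS. Of the 26 members with the letters, 7 were lower at an unadjusted p under 0.05, and of the 12 without them, 4 were. Stretches of 3 members that were lower are given on the plus strand (GRCh38.p14, RefSeq windows, outside every GENCODE 29 exon) to show the element near their starts, in capitals. They lie at chr1:78620198-78620363 for IFI44L, chr1:78649681-78649795 for IFI44 and chr10:89392417-89392545 for IFIT1, whose stretch holds 2 matches. The IFI44L stretch precedes a RefSeq start inside the gene span given above, so it lies within that span. In IFI44 and IFIT1 the element reads on the minus strand.
IFI44L: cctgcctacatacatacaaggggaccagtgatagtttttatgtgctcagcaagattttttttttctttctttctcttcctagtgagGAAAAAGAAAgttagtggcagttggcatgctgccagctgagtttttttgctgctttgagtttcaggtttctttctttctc
IFI44: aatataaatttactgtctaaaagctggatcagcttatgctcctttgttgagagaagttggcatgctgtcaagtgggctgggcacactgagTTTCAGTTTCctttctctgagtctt
IFIT1: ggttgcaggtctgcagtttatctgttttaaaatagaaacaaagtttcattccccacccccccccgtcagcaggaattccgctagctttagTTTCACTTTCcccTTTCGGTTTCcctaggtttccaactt

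**Figure D1:**
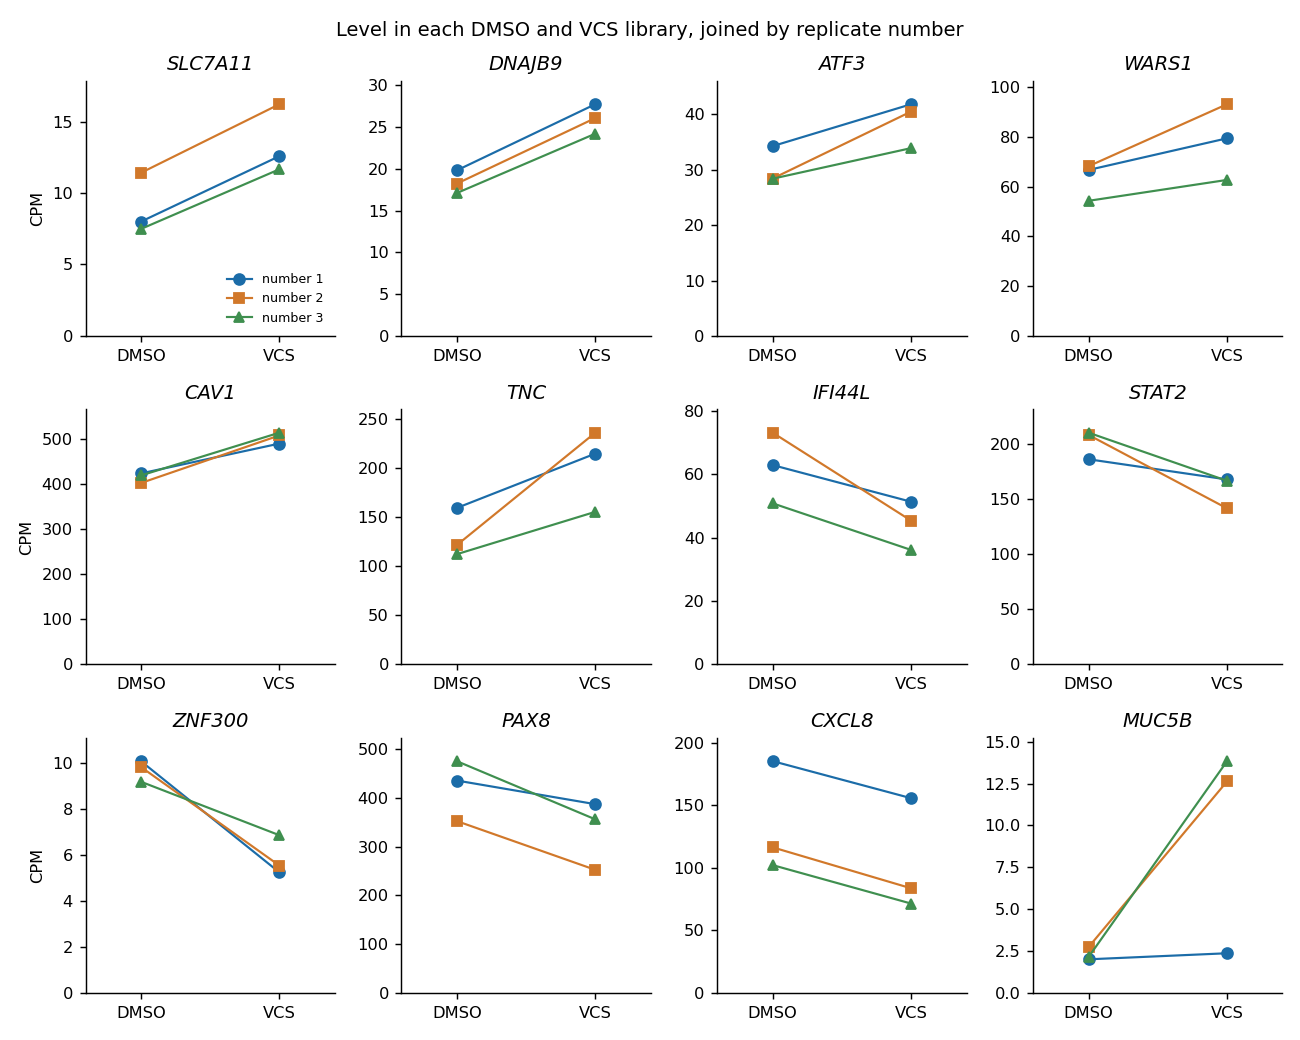
Levels of 12 genes in CPM (vertical axes from 0) in each DMSO and VCS library, with lines joining libraries of the same replicate number. The ATF4 targets and DNAJB9 slope upward and the interferon genes downward in each pair, whereas MUC5B is nearly level in the pair numbered 1.

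NF-kB and inflammatory genes were mixed, with a median of −0.01. At an unadjusted p under 0.05, 2 of 37 were higher (5.41%, beside 5.23% of all genes) and 6 lower (16.2%, beside 5.78%). The 6 lower were 2 without the VCS library numbered 2, 3 without the DMSO library numbered 2 or 3 and 0 with no replicate block, and the 2 higher were 0 to 4 with a library left out. NFKB2, an NF-kB subunit, was at 108 ± 14.4 CPM in DMSO and 90.2 ± 17.6 in VCS (n = 3 each), a difference of −0.26 (SE 0.07). CXCL8 was at 185, 116 and 102 CPM in DMSO and at 156, 83.6 and 71.4 in VCS, so that each VCS library lay under its own control although the groups overlapped. VCAM1, an adhesion molecule, went the other way, at 15.9, 15.6 and 19.3 CPM in DMSO and 22.7, 21.5 and 22.1 in VCS, a difference of 0.40 (SE 0.15). Of 21 antigen presentation genes, 2 were lower (9.52%, beside 5.78% of all genes) and 0 higher at that threshold. The 2 lower were the class I regulator NLRC5 at −0.24 (SE 0.07) and the class II regulator CIITA at −0.56 (SE 0.19). That count was 1 without the DMSO library numbered 2 and 5 without the CSA library numbered 3.

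Genes of podocyte structure lay mostly above 0. SYNPO was at 52.3, 41.9 and 44.8 CPM in DMSO and at 61.8, 59.9 and 48.3 in VCS, a difference of 0.29 (SE 0.11, adjusted p = 0.408). The VCS library numbered 3 fell inside the DMSO range. ACTN4 differed by −0.01 (SE 0.07). In the list for the slit diaphragm and foot process, 23 of 31 lay above 0. At an unadjusted p under 0.05, 4 were higher (12.9%, beside 5.23% of all genes) and 0 lower. The 4 were SYNPO, the adaptor CD2AP at 0.22, the polarity gene PARD3 at 0.20 and the polarity kinase PRKCI at 0.17. That count was 0 without the DMSO library numbered 2 or the VCS library numbered 1 or 2, 1 and 2 without the DMSO libraries numbered 1 and 3, 7 without the VCS library numbered 3 and 9 without the CSA library numbered 3. Of 35 contractile and actin genes, 27 lay above 0. At the same threshold, 3 were higher (8.57%, beside 5.23% of all genes) and 0 lower. Among the 3 was CALD1, caldesmon, at 0.25 (SE 0.08). This count of 3 was 0 without the DMSO or the VCS library numbered 2 and 5 without the TAC library numbered 3. It was 11 without the library numbered 3 of CSA or VCS.

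Among podocyte transcription factors, WT1 was at 0.730, 1.11 and 0.725 CPM in DMSO and at 1.34, 1.39 and 0.787 in VCS, with 20 to 50 counts a library over the whole series. Its difference was 0.46 (SE 0.32, adjusted p = 0.594). Of the 19 factors tested, 1 was higher (5.26%, beside 5.23% of all genes) and 3 lower (15.8%, beside 5.78%) at an unadjusted p under 0.05. PAX8, a developmental factor of the kidney, was at 436, 353 and 476 CPM in DMSO and at 387, 253 and 356 in VCS, a difference of −0.35 (SE 0.09). PAX2, a related factor, was at 13.6, 15 and 15.5 CPM in DMSO and at 10.6, 10.5 and 13.3 in VCS, with no overlap and a difference of −0.36 (SE 0.10). FOXC1 differed by −0.23 (SE 0.08).

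Adhesion and matrix genes lay mostly above 0. Of 33 integrin and focal adhesion genes, 29 lay above 0, with a median of 0.17. At an unadjusted p under 0.05, 7 were higher (21.2%, beside 5.23% of all genes) and 0 lower. CAV1, caveolin-1, at chr7:116524785-116561184, was at 424, 403 and 419 CPM in DMSO and at 490, 508 and 514 in VCS. Its values were tight within each group and did not overlap, and the difference was 0.28 (SE 0.08, adjusted p = 0.385). The integrin subunit ITGB1 differed by 0.31 (SE 0.14), ITGB4 by 0.24 (SE 0.08) and the integrin activator FERMT1 by 0.36 (SE 0.10). ZYX, zyxin of focal adhesions, lay lower, at −0.15 (SE 0.08). With a library left out, the count of 7 was 2 to 4 without any DMSO library, the VCS library numbered 1 or 2 or the TAC library numbered 1 or 2, and 17 and 19 without the VCS and the CSA library numbered 3. It was 20 without the libraries numbered 3.

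Of 23 glomerular basement membrane genes, 20 lay above 0 (50.3% of all genes did), among them the laminin chain gene LAMB3, at 0.33 (SE 0.10). At an unadjusted p under 0.05, 2 were higher (8.70%, beside 5.23% of all genes) and 0 lower. With a library left out, the higher count ran from 2 to 8, the most without the CSA library numbered 3. It was 10 without the libraries numbered 3. TNC, tenascin-C of the interstitial matrix, was at 159, 121 and 112 CPM in DMSO and at 214, 236 and 155 in VCS. Its groups overlapped by the VCS library numbered 3, and the difference was 0.62 (SE 0.15, adjusted p = 0.385). The collagen gene COL6A3 differed by 0.59 (SE 0.21), and these were the 2 of 35 interstitial matrix genes higher at an unadjusted p under 0.05 (5.71%, beside 5.23% of all genes). That count was 1 without either the DMSO or the VCS library numbered 2, 5 without the CSA library numbered 1, 7 without the VCS library numbered 3 and 14 without the CSA library numbered 3. It was 13 with the 6 compared libraries alone and 14 without the libraries numbered 3.

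**Figure D2:**
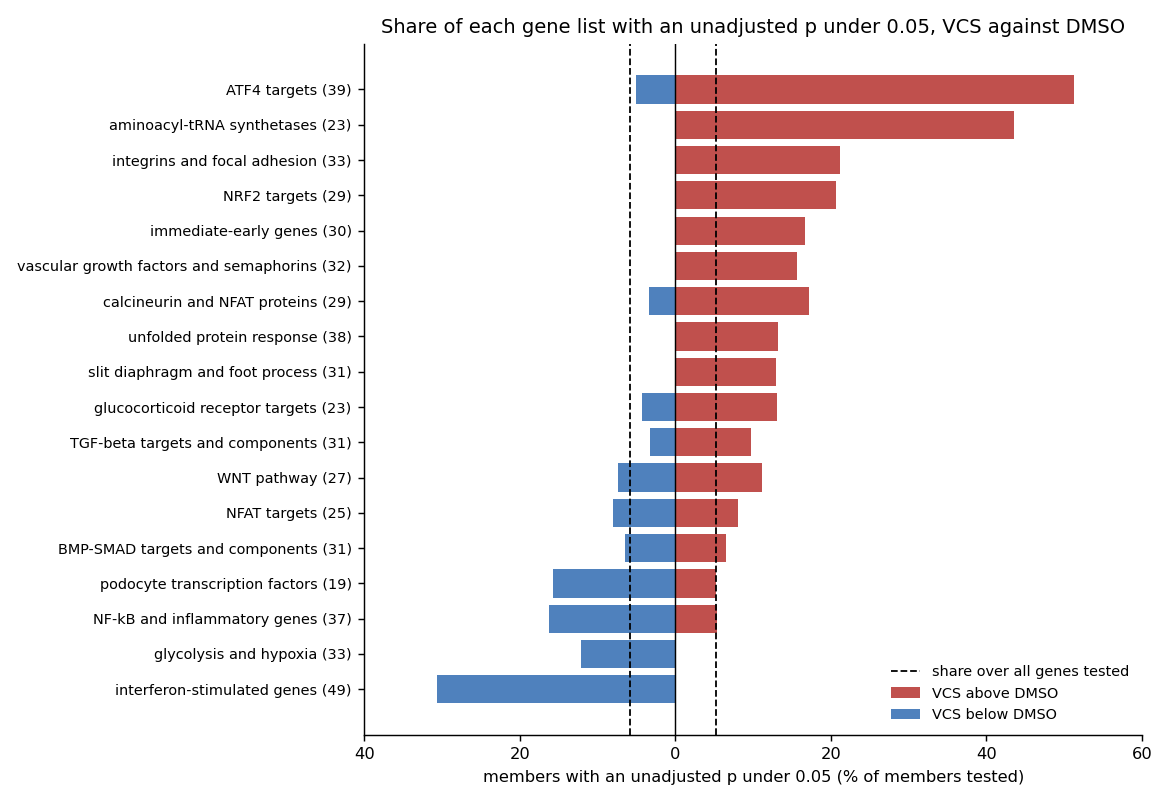
Share of tested members with an unadjusted p under 0.05 (horizontal axis, %), above DMSO to the right and below it to the left, for lists with 4 or more such members and the number tested in brackets. ATF4 targets (20 of 39) and synthetases (10 of 23) reach furthest right and interferon-stimulated genes (15 of 49) furthest left of the dashed background shares of 5.23% and 5.78%.

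**Figure D3:**
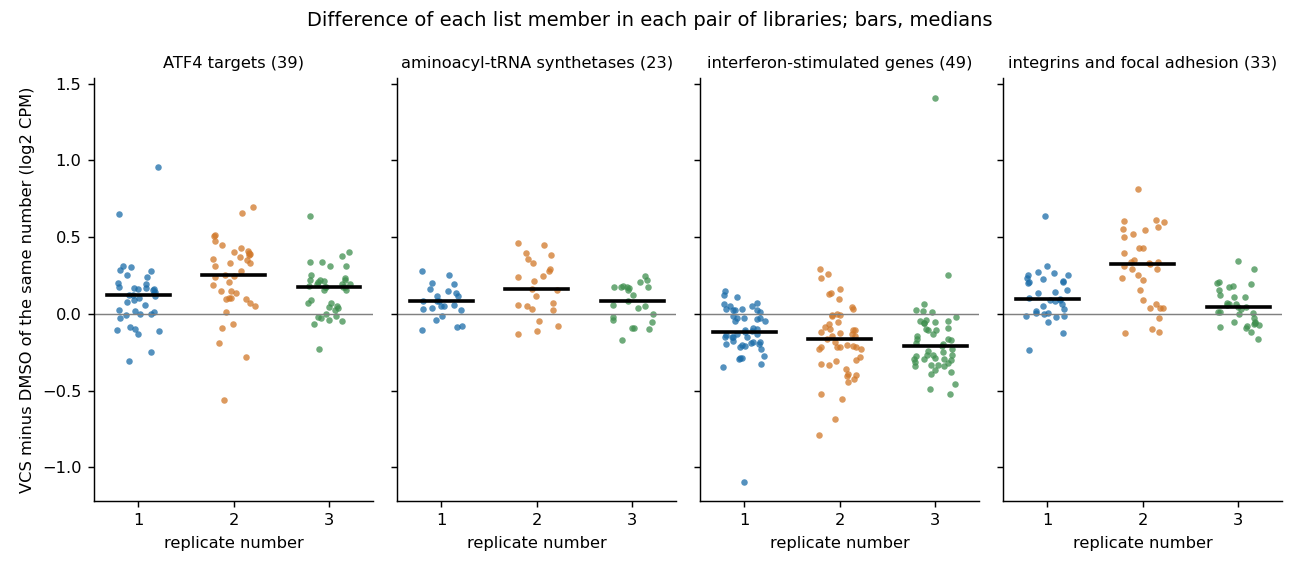
Difference of each member between the VCS and DMSO library of the same number (log2 CPM, vertical axis) in 4 lists, with black bars for medians. The medians keep their side of 0 in all 3 pairs of each list, at 0.12, 0.25 and 0.18 for ATF4 targets and −0.12, −0.16 and −0.21 for interferon-stimulated genes.

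By the smallest p-values among genes with a symbol, a mean log2 CPM of at least 1 and 1 sign in all 3 pairs, the higher genes were led by GPD1L, a relative of glycerol-3-phosphate dehydrogenase. It was at 12.2, 10.6 and 10.1 CPM in DMSO and at 15.9, 15.2 and 13.7 in VCS, with no overlap and a difference of 0.44 (SE 0.08, adjusted p = 0.279). Other genes among the first 15 were TSPAN2, a tetraspanin, at 0.36, CHM, a Rab escort protein, at 0.49, MTMR6, a lipid phosphatase, at 0.40, and AOX1, aldehyde oxidase, at 0.45. ZNF20 (1.1) overlaps a readthrough transcript on its strand, so reads of the pair may be split between the gene models. MUC5B, a gel-forming mucin, was at 2.01, 2.74 and 2.14 CPM in DMSO and at 2.37, 12.6 and 13.8 in VCS. The plakophilin gene PKP1 was at 5.44, 3.75 and 3.36 CPM in DMSO and at 5.73, 12 and 13.3 in VCS. In both genes the VCS library numbered 1 was near control and the other two were several times higher.

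Without the VCS library numbered 1, 15 genes passed the adjusted threshold, MUC5B (2.49, adjusted p = 9.25e-05 by edgeR) and PKP1 (1.74, adjusted p = 0.00303 by edgeR) among them. That library was the one near control for both genes, so leaving it out raises their difference by construction. IL13RA2, an interleukin-13 receptor chain, followed the same pattern, at 0.608, 0.431 and 0.593 CPM in DMSO and 0.416, 3.39 and 3.90 in VCS, and was named after its values were seen. Genes of low level in this pattern also included the keratin KRT75, at 0.152, 0.0308 and 0.132 CPM in DMSO and 0.224, 0.818 and 1.39 in VCS, likewise named after its values were seen. Summed over 15 airway and surfactant markers, the level ran from 20.7 to 31.6 CPM in DMSO and from 30.8 to 42.6 in VCS. MUC5B is 1 of these 15, so its higher values enter the VCS sum. The 12 markers tested had median differences of 0.24, 0.56 and −0.14 in the 3 pairs in order. The secretoglobin SCGB3A2 was at 0 counts in VCS, and likewise in CSA and TAC. Summed over 15 basal and squamous epithelial markers it ran from 189 to 267 CPM in DMSO and from 212 to 290 in VCS. In bulk RNA, a larger number of cells of a type and more RNA per cell cannot be told apart, and the part of such cells in these differences was not tested.

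Among lower genes by the same rule, the pseudogene KPNA2P3 came first, at −0.77, and ZNF300, a zinc finger gene at chr5:150894392-150904983, second. ZNF300 was at 10.1, 9.84 and 9.20 CPM in DMSO and at 5.25, 5.54 and 6.87 in VCS, with no overlap and a difference of −0.74 (SE 0.13, adjusted p = 0.279). DNMT3B, a de novo DNA methyltransferase, was at 32.8, 28.3 and 36.2 CPM in DMSO and at 26.9, 17.3 and 27.9 in VCS. SLFN13, a ribonuclease of the Schlafen family, was at 33.5, 37.7 and 41.6 CPM in DMSO and at 26.3, 23.3 and 32.8 in VCS. Neither overlapped, at −0.45 and −0.46. PRKAB2, a regulatory subunit of AMP-activated kinase, was at 469, 425 and 637 CPM in DMSO and at 412, 265 and 474 in VCS, with a difference of −0.43 and overlapping groups. Of the genes with a symbol named so far, the 37 genes that DESeq2 called held SLC7A11, DNAJB9, TNC, PKP1, PRKAB2, IFI44L, XAF1, SLFN13, DNMT3B, ZNF300, CHM, ZNF20, KPNA2P3, IL13RA2, AOX1 and TSPAN2, with adjusted p-values from 0.00269 for PKP1 to 0.0471 for TSPAN2.

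The smallest adjusted p in edgeR, 0.134, belonged to ENSG00000196656, a processed pseudogene at chr4:113214046-113217170 inside ANK2 and antisense to it. DESeq2 called it as well (adjusted p = 2.08e-07). It had 716 counts over the 3 DMSO libraries and 0 over the 3 VCS libraries, which is at least 230-fold lower at a floor of 3 counts over the group. The 3 DMSO libraries differed widely, at 1.92, 7.50 and 13.5 CPM. CSA libraries held 8.94, 7.48 and 5.65 CPM and TAC libraries 0, 0.0297 and 0. A processed pseudogene resembles the transcript it derives from, so the placement of these counts is uncertain.

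ENSG00000280800, a noncoding transcript annotated at chr21:8210384-8211306 next to the ribosomal RNA gene RNA5-8SN2, was at 1760, 1868 and 1384 CPM in DMSO and at 3415, 4901 and 1929 in VCS. All VCS libraries lay above all DMSO libraries, and the difference was 0.98 (SE 0.21, adjusted p = 0.336). Against TAC it passed the threshold, at 1.19 (SE 0.21, adjusted p = 0.0463). RNA5-8SN2 was at 22.7 ± 7.17 CPM in DMSO and 39.7 ± 18.2 in VCS (n = 3 each), and higher than in TAC by 1.87 (adjusted p = 0.0294). ENSG00000280800 missed the threshold against TAC in 11 of the 20 alternative settings and RNA5-8SN2 in 10, including those without the VCS library numbered 2. These transcripts together with the rest of the ribosomal RNA are normally removed by poly(A) selection, and the part of that step in these levels was not tested.

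Gene class and transcript features also separated the directions. Of 14794 coding genes, 6.36% were higher and 4.93% lower at an unadjusted p under 0.05. Of 3173 long noncoding genes, 1.64% were higher and 8.45% lower, with a median of −0.16 and pair medians of −0.08, −0.33 and −0.04. Among genes with a mean log2 CPM of 1 to 4, the lower share was 5.75% of 3654 coding genes and 16.2% of 722 long noncoding genes. Of the reads, long noncoding genes took 1.49% to 1.75% in each of the 6 libraries, with no separation of the groups. ENSG00000280800 is annotated in this class and took 0.140% to 0.194% of the reads in DMSO and 0.187% to 0.485% in VCS. Without it, the class took 1.31%, 1.46% and 1.61% in the DMSO libraries numbered 1 to 3 and 1.26%, 1.11% and 1.53% in the VCS libraries. That is lower in VCS in each of the 3 pairs. However, taking out a transcript already seen to be higher in VCS lowers the VCS share by construction. With it kept, the pair numbered 1 went the other way, at 1.49% in DMSO and 1.59% in VCS.

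Among coding genes, the quintile with the longest transcripts had 9.60% higher and 3.72% lower, and the quintile with the shortest 2.30% higher and 4.36% lower. The median difference went from −0.02 in the shortest quintile to 0.07 in the longest, but in the pair numbered 3 the order was opposite, from 0.03 to −0.02. By GC content, the lowest quintile had 9.16% higher and 3.85% lower, and the highest quintile 2.27% higher and 8.22% lower. The 39 ATF4 targets had a median transcript length of 2634 bases and the 49 interferon-stimulated genes 3266 bases, beside 3341 over coding genes. The integrin list, at 4675 bases, and the basement membrane list, at 6586, were longer than the coding median. The part of length and GC content in the list counts was not tested.

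**Figure D4:**
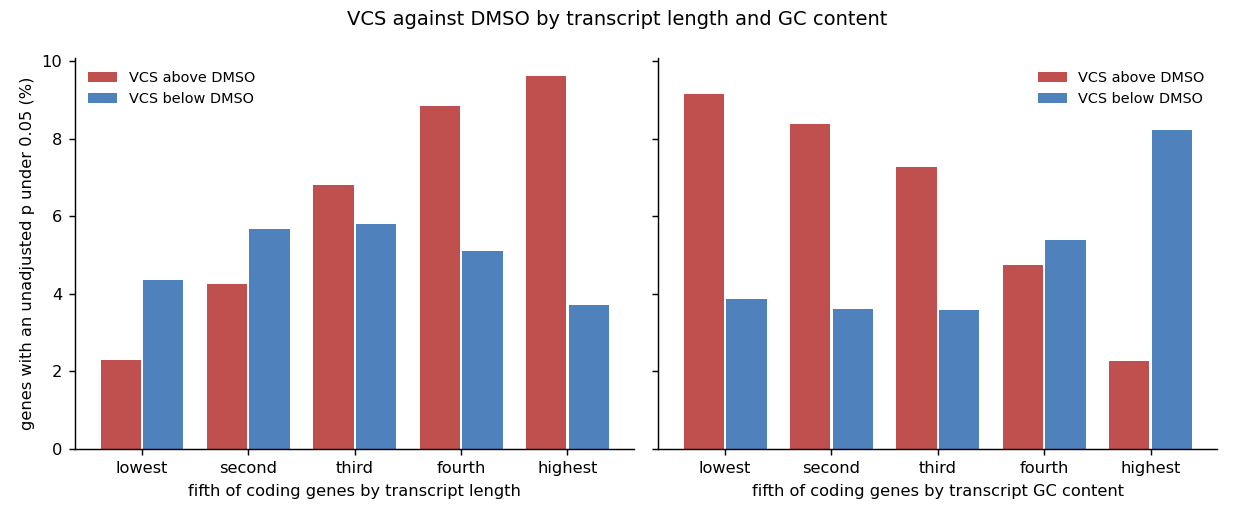
Share of coding genes with an unadjusted p under 0.05 (vertical axis, %) in each quintile by transcript length (left) and GC content (right), higher and lower in VCS. The higher share climbs from 2.30% in the shortest quintile to 9.60% in the longest and drops from 9.16% at the lowest GC content to 2.27% at the highest.

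VCS was set beside CSA, with which it shares the cyclic peptide scaffold, and beside the macrolide TAC, at the same dose and time. Of 19784 genes, 6 passed the adjusted threshold between VCS and CSA (0.0303%), 5 higher in VCS (0.0253%) and 1 lower (0.00505%). The 95% interval of the difference lay within 2-fold either way for 15571 genes (78.7%), and for 6139 of the 6145 genes with a mean log2 CPM of at least 5. Between VCS and TAC, 41 genes passed (0.207%), 16 higher (0.0809%) and 25 lower (0.126%). Their interval lay within 2-fold for 15448 genes (78.1%), and for 6137 of the same 6145 genes. This share depends on the width of the interval as well as on the difference. It held nearly all of the 6145 genes for both inhibitors, so it does not rank their closeness to VCS. The comparisons are of 2 pairs of compounds, each adjusted over all genes tested, and both use the same VCS libraries.

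The 5 genes higher in VCS than in CSA encode surfactant and epithelial proteins, and they were also higher than in TAC. SFTPA1, surfactant protein A1, at chr10:79610939-79615455, was at 4.74, 3.18 and 2.11 CPM in VCS and at 0.265, 0.223 and 0.116 in CSA, a difference of 4.02 (SE 0.38, adjusted p = 0.00362). In TAC it was at 0.363, 0.119 and 0.0307 CPM, and VCS was 4.28 higher on the log2 scale (adjusted p = 0.000597). The DMSO libraries, at 4.26, 3.04 and 3.86 CPM, were as high as VCS. The basal keratin KRT5 was at 16.3, 10.2 and 4.94 CPM in VCS, 1.32, 1.97 and 0.927 in CSA and 12.9, 5.50 and 5.47 in DMSO, with a difference from CSA of 2.79 (SE 0.29, adjusted p = 0.00463). SFTPA2, KRT14 and LTF, lactoferrin, were the other three, at 2.55, 3.45 and 1.84 above CSA. In all 5 the VCS and DMSO libraries overlapped, and the libraries numbered 1 were the highest in both groups. All 5 are of low level, with 16.3 CPM for KRT5 the highest value in any library. SFTPA1 passed the edgeR or DESeq2 threshold against CSA under all 20 alternative settings tried (highest adjusted p = 0.0402). KRT5 missed it in 2 of them, with no replicate block (adjusted p = 0.189) and without the VCS library numbered 2, SFTPA2 in 3, KRT14 in 9 and LTF in 13.

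Of 31 BMP-SMAD targets and components, genes of bone morphogenetic protein signalling, 7 were lower in VCS than in TAC at the adjusted threshold (0.126% of all genes) and 0 higher. The list's median was −0.05. ID1, an inhibitor of basic helix-loop-helix factors at chr20:31605283-31606515, was at 45.5, 42.3 and 32.6 CPM in VCS and at 93.2, 93.5 and 86.7 in TAC, a difference of −1.20 (SE 0.10, adjusted p = 0.000485). In DMSO it was at 43.4, 42.3 and 33.1 CPM, and the VCS difference from CSA was 0.11 (95% interval −0.12 to 0.34). ATOH8, a BMP-responsive transcription factor, differed from TAC by −1.05 (SE 0.08) and ID3 by −0.75 (SE 0.08), both lower in VCS. Outside the list, SAMD11 was also lower in VCS than in TAC, at −1.77 (SE 0.19). CGB8, likewise outside the list, differed by −1.29 (SE 0.10). It is a chorionic gonadotropin subunit of a near-identical gene family whose reads cannot be assigned with certainty. SMAD9, SMAD6, SMAD7 and ID2 were the other list members that passed, and they were named after their values were seen. They were also lower in VCS than in TAC, from −0.90 for SMAD9 to −0.48 for SMAD7. Over 20 alternative settings SMAD9 missed the threshold in 2, SMAD6 in 3, SMAD7 in 5 and ID2 in 8, with a highest adjusted p of 0.925 for SMAD7 and ID2 by edgeR or DESeq2. Under the same settings, ID3 and SAMD11 passed the edgeR or DESeq2 threshold against TAC in all, and ID1, ATOH8 and CGB8 in all but the fit with no replicate block (adjusted p = 0.0531, 0.08 and 0.0919).

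In the other direction, GDF5, a BMP family ligand outside that list, was at 128, 149 and 123 CPM in VCS. In TAC it was at 80.6, 80.8 and 65.4, a difference of 0.82 (SE 0.11, adjusted p = 0.0142), and in DMSO at 110, 103 and 102. VCAM1 was higher than in TAC by 0.97 (SE 0.16, adjusted p = 0.0313). The plasminogen activator gene PLAT, the cytokine gene IL1B and the chemokine gene CCL2, named after their values were seen, were higher by 0.54, 0.81 and 0.86. Their means were 159, 4.91 and 16.6 CPM in VCS, 147, 4.91 and 14.8 in DMSO and 108, 2.81 and 9.04 in TAC. GDF5 missed the threshold without any of the TAC libraries in turn or without the VCS library numbered 2 (highest adjusted p = 0.131 by edgeR), and VCAM1 in 8 of the 20 settings. PLAT missed it in 8, CCL2 in 9 and IL1B in 13 of them, with a highest adjusted p of 0.649, 0.99 and 0.974 by edgeR or DESeq2. The 3 NF-kB and inflammatory genes that passed were VCAM1, IL1B and CCL2. Of the list's 37 members, 17 were higher in VCS than in TAC at an unadjusted p under 0.05 (4.43% of all genes) and 0 lower. Against DMSO, that list had a median of −0.01 in VCS and −0.27 in TAC. Of 48 cell cycle and mitosis genes, 21 were lower than in TAC at an unadjusted p under 0.05 (3.45% of all genes) and 0 higher. None passed the adjusted threshold, and the median difference from TAC was −0.16. Against DMSO, the median was −0.0005 in VCS, with 24 members above and 24 below 0, and 0.20 in TAC.

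**Figure D5:**
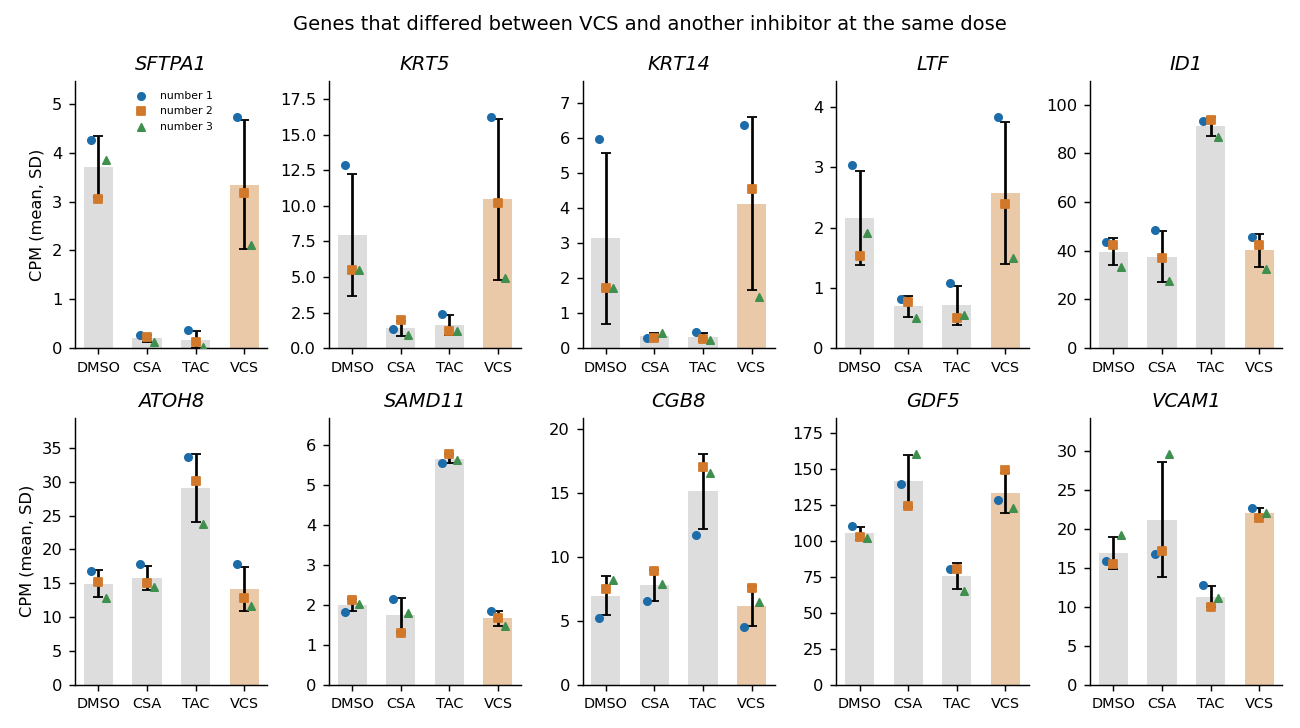
Mean CPM with SD (bars and whiskers, vertical axes from 0) and each library (points) in 4 groups for 10 genes that passed the adjusted threshold between VCS and CSA or TAC. VCS stands beside DMSO for SFTPA1, KRT5, ID1 and SAMD11, with CSA and TAC low for SFTPA1 and TAC high for ID1.

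For the lists that led the comparison with DMSO, the other inhibitors gave these medians, against the same DMSO libraries. ATF4 targets had a median of 0.25 in CSA and 0.09 in TAC beside 0.18 in VCS. Interferon-stimulated genes had −0.21 in CSA and −0.18 in TAC beside −0.13 in VCS. Integrin genes had 0.19 in CSA and 0.05 in TAC beside 0.17 in VCS. For SLC7A11, the difference of VCS from CSA was 0.00 (95% interval −0.24 to 0.25) and from TAC 0.22 (95% interval −0.02 to 0.47). For DNAJB9 it was −0.04 from CSA (95% interval −0.27 to 0.19) and 0.25 from TAC (95% interval 0.02 to 0.48). None of these passed the adjusted threshold.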

How the data were processed

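RNA was measured in 12 libraries of a podocyte line, 3 each of DMSO, CSA, TAC and VCS; poly(A)-selected libraries carried ERCC spike-ins and in-line molecular identifiers, per the labels' protocols. The authors deposited expected counts per gene, estimated with Salmon on GRCh38 per the submitters' processing notes and whole numbers as deposited; whether identifiers were collapsed, strand was used or genes without a name were kept are points not given in the sources used here. Without a stated strand, overlapping and antisense genes cannot be told apart. Groups and replicate numbers came from the sample labels.

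Counts were analysed in R 4.3.3 with edgeR 4.0.16. Genes passed filterByExpr with a minimum count of 10, libraries were scaled by TMM, and 1 quasi-likelihood model with group and replicate number was fitted to all 12 libraries, which leaves 6 residual degrees of freedom. P-values were adjusted by the Benjamini-Hochberg method over all 19784 genes, with a threshold of 0.05. Pair differences used a prior count of 2. Intervals cover 95%. Alternatives included other scalings and filters, DESeq2 1.42.0, the 6 compared libraries alone, no replicate block and each library left out.

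Symbols were found for 17037 of the tested genes. Positions, classes and transcript features came from GENCODE 29 and promoters from RefSeq (GRCh38.p14). The members and lists were chosen with earlier results of these data known. Named genes were a fixed set of 8, up to 15 per direction by p-value, up to 4 per list and up to 5 per direction between inhibitors. Other list members named in the text were chosen after their values were seen. Lists were described by counts and medians, with no set test. Marker lists for proximal tubule, parietal epithelial, endothelial, mesangial and immune cells were not discussed further. They had at most 2 members at an unadjusted p under 0.05 in a direction. The parietal list had the most, with 2 of 12 lower (16.7%, beside 5.78% of all genes) and 1 higher (8.33%, beside 5.23%). PAX2 and PAX8 are members of this list as well. The mesangial list had 1 of 13 lower (7.69%) and the other lists had 0 in either direction. Some list members are not reported here.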

Additional observations from a re-analysis of the deposited data

How the results depend on the processing

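The count of 0 genes between VCS and DMSO held with RLE scaling, a minimum count of 30 and robust estimation. It was 527 with no filter on low counts (273 higher), 37 with DESeq2 (15 higher), 3 with the compared libraries alone (1 higher), 0 to 15 with a library left out (0 to 13 higher, the most without the VCS library numbered 1), and 278 without the libraries numbered 3 (182 higher). Genes higher at an unadjusted p under 0.05, 1035 by the model used, numbered 1678 with no filter, 2234 without the libraries numbered 3 and 327 to 2051 with a library left out; genes lower, 1144 by that model, numbered 1788 and 506 to 1738 in the last 2 settings. The lowest of these counts came without the VCS library numbered 2, the most higher genes without the CSA library numbered 3 (with 1578 lower) and the most lower genes without the VCS library numbered 3 (with 1717 higher). Without the DMSO library numbered 2 they were 447 and 578, and without the DMSO library numbered 3 there were 685 higher.

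Between VCS and CSA, 6 genes became 170 with no filter, 19 with DESeq2, 15 without the libraries numbered 3 and 1 to 13 with a library left out. Between VCS and TAC, 41 became 369, 94 and, with the compared libraries alone, 229, and 8 to 112 with a library left out. The cause of these shifts was not tested.

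Same-numbered DMSO and VCS libraries had deviations from their group means that correlated at 0.280, 0.0975 and 0.428 for numbers 1 to 3, beside −0.427 to 0.263 for unlike numbers, so the number is not shown to pair every library. With no replicate block, the counts were 1 gene between VCS and DMSO (0 higher), 2 between VCS and CSA and 5 between VCS and TAC, and at an unadjusted p under 0.05 there were 303 genes higher and 344 lower than DMSO. The ATF4 count of 20 was then 10, the interferon count of 15 was 5 and the synthetase count of 10 was 4.

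Signs turned for 4 named values near 0. With a library left out, the VCS minus DMSO difference ran from −0.00327 to 0.14 for RCAN1 and from −0.024 to 0.051 for HSP90B1 (−0.023 without the libraries numbered 3), and the VCS minus CSA difference from −0.10 to 0.12 for SLC7A11 and from −0.15 to 0.14 for DNAJB9 (0.14 without the libraries numbered 3). At 28808213 to 36077072 counts a library and 3 libraries a group, genes of low level had wide intervals.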
